A study of Mus musculus with 18 samples.

Results

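The 8 genes described here mark neurons that use GABA, and in part glycine, as transmitter: Gad1, Gad2, Slc32a1, Slc6a5, Dlx1, Dlx2, Dlx5 and Dlx6. They were found by symbol among the 23420 genes counted in every library, all 8 were present, and all 8 passed the filter on low counts that left 17166 genes for testing. The libraries were made from E14 cells, a wild type line of mouse embryonic stem (ES) cells, and from cultures derived from it, 18 in all, 2 in each of 9 groups. Undifferentiated ES cells were grown without feeder cells in serum and leukemia inhibitory factor, as control or with GW3965, LG268 or both ligands for 24 h. The other groups had all been grown as embryoid bodies (aggregates in suspension), had received 5 µM retinoic acid for a span of 4 days, and were then plated on laminin and poly-L-ornithine in N2 medium. The untreated cultures of this kind were harvested on day 8, day 16 or day 17, and those given GW3965 on day 16 or day 17. GW3965 is an agonist of the liver X receptors (LXR) and LG268 of the retinoid X receptors (RXR), their partners on DNA. Both were used at 1 µM, against dimethyl sulfoxide as vehicle. No duration of GW3965 in the differentiated cultures was given by the sample labels, but judging by how the files are named it began on day 8 in the day 16 group and lasted 24 h in the day 17 group. The day 16 and day 17 responses therefore differ in more than age. All groups share 1 cell line, and nothing in the labels says whether the 2 libraries of a group came from separate cultures, so the p-values measure only the spread between these libraries, which may be technical.

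GABA is the main inhibitory transmitter of the brain, and glycine acts beside it in the hindbrain and spinal cord. Neurons make GABA from glutamate with glutamate decarboxylase, whose isoforms GAD67 and GAD65 are the products of Gad1 and Gad2, and load it into synaptic vesicles with the vesicular inhibitory amino acid transporter VGAT, the product of Slc32a1. VGAT also loads glycine, which neurons that release it take up with GLYT2, the product of Slc6a5. The Dlx genes encode homeodomain transcription factors of the embryonic ventral forebrain, where they act in the making of GABAergic neurons and lie in the genome as converging pairs, Dlx1 with Dlx2 and Dlx5 with Dlx6. In the hindbrain and spinal cord GABAergic neurons arise under other factors, among them PTF1A, PAX2, LHX1 and LHX5.

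In GENCODE M21 on GRCm38, 5 of the members lie on chromosome 2. Gad1 spans chr2:70553072-70602014, Gad2 chr2:22622205-22693874 and Slc32a1 chr2:158610767-158615748, all on the + strand. Dlx1 (chr2:71528113-71533981, + strand) and Dlx2 (chr2:71543408-71546754, - strand) are neighbours. Dlx6 (chr6:6863334-6868568, + strand) and Dlx5 (chr6:6877805-6882085, - strand) form the other pair, and Slc6a5 is at chr7:49910146-49963856 on the + strand. 

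The promoters of the 4 members that rose with GW3965 at day 16 are shown, so that genes that rose together can be compared. Each is the 250 bases before the gene's start in RefSeq on GRCm38.p6, read 5′ to 3′ on the gene's strand, and capitals mark a match to 1 of 4 motifs searched on both strands.
Gad1 promoter, chr2:70561879-70562128, + strand: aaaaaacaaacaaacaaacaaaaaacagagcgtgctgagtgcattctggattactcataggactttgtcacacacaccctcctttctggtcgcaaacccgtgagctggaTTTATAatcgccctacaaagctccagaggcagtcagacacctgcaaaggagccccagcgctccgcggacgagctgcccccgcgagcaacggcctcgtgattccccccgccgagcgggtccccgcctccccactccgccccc
Gad2 promoter, chr2:22622077-22622326, + strand: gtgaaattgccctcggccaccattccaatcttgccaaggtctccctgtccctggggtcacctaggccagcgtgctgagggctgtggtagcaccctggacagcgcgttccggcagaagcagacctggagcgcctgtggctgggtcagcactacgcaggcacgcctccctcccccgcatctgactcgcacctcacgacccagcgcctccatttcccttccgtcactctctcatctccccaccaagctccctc
Slc32a1 promoter, chr2:158610508-158610757, + strand: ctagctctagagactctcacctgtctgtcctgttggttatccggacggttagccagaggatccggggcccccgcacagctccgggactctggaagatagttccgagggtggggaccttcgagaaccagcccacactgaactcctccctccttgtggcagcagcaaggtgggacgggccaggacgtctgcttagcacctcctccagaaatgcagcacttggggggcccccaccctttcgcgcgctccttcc
Dlx1 promoter, chr2:71529195-71529444, + strand: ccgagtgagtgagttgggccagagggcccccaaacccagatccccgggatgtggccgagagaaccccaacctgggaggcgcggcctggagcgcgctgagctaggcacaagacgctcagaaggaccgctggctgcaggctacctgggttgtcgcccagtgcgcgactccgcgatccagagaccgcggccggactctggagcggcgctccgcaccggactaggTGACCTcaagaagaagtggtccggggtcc
The motifs were TAATTA, a homeodomain core, CAGCTG, an E-box, AGGTCA, the half-site of nuclear receptors such as LXR, RXR and the retinoic acid receptors, and TATAAA, the TATA box core. The Gad1 window holds TATAAA on the opposite strand, 141 bases before the start, and the Dlx1 window holds AGGTCA on the opposite strand, 29 bases before the start. The Gad2 and Slc32a1 windows hold none of the 4. Over all 32851 RefSeq windows of this length, 14% hold AGGTCA, 12.4% TATAAA, 13% CAGCTG and 4.84% TAATTA. These matches are letters only, and nothing about binding was measured here.

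Depth was 16.75 to 44.79 M reads counted in genes (median 23.51), so that 3 counts, the limit below which a level was taken as background, equal 0.0734 to 0.175 CPM (counts per M gene counts). CPM are scaled by TMM, a correction for library composition. In the 4 day 17 files, without and with GW3965, 31.84 to 33.53% of the listed reads were set aside as aligned more than once, against 0 in the 14 other files. Every comparison of day 17 with day 16 therefore also compares files with and without that class of reads, which cannot be told apart from the extra day. The labels name all libraries as ES cells. The summed level of 10 pluripotency genes was 2643 to 2932 CPM in the 8 undifferentiated libraries and 68.3 to 199 CPM in the 10 differentiated ones. That of 14 pan-neuronal genes was 478 to 562 CPM and 2190 to 4968 CPM. The differentiated cultures also held 12 mesenchyme genes at 2109 to 13580 CPM and 12 glial genes at 331 to 3373 CPM. In bulk RNA, fewer cells of a type and less RNA per cell cannot be told apart. Of 8 LXR target genes, 7 rose with GW3965 in ES cells, at day 16 and at day 17, none fell, and LG268 raised 6.

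**Figure D1:**
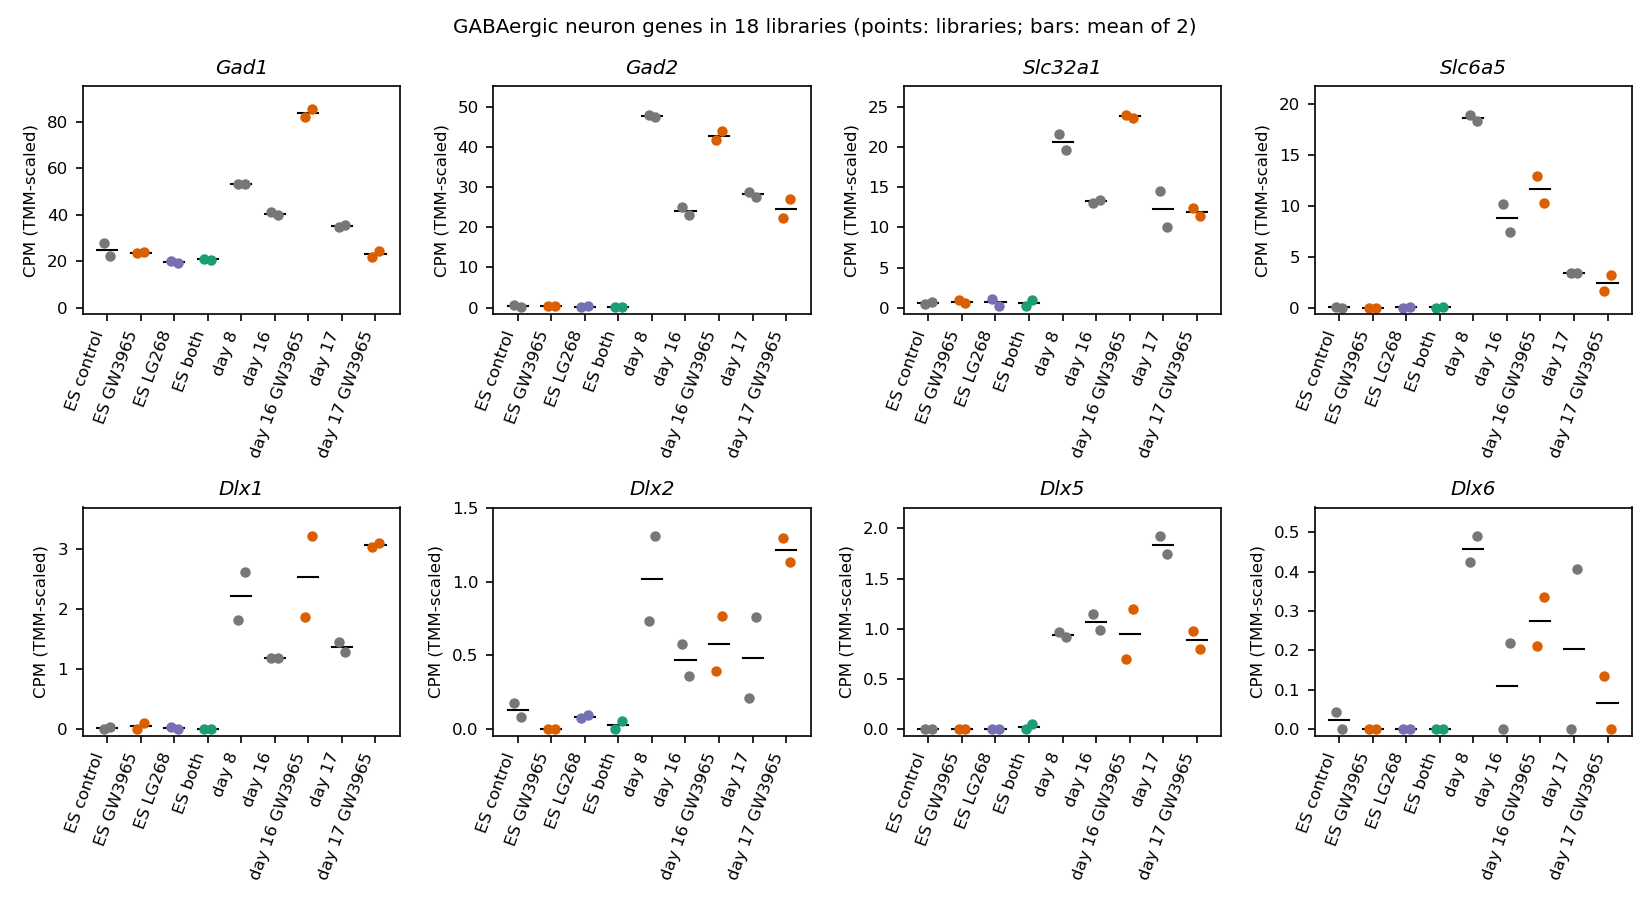
Each panel plots 1 gene in CPM (vertical axis, linear, a separate scale per gene) over the 9 groups, with 1 point per library and a bar at the mean of 2. Gad1, Gad2 and Slc32a1 peak at day 8 and again at day 16 with GW3965, Slc6a5 is highest at day 8, and the 4 Dlx genes stay below 3.3 CPM throughout.

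All 8 genes rose from ES cells to day 8. Across all genes tested, 39.7% were called higher in that comparison (edgeR's quasi-likelihood test, Benjamini-Hochberg adjusted p below 0.05). Gad1 was the only member with a clear level in ES cells, and it rose the least.

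Gad1 stood at 27.6 and 22.3 CPM in the 2 ES control libraries and at 53.3 and 53.1 CPM at day 8. The groups were well apart, and the rise was 2.13-fold (log2 1.09 ± 0.09 SE, edgeR adjusted p = 3.92e-10). Gad2 stood at 0.615 and 0.198 CPM in ES cells and at 48.0 and 47.6 CPM at day 8. This was a rise of 119-fold (log2 6.90 ± 0.21, adjusted p = 1.04e-16); the gene was close to the limit of detection in ES cells. Slc32a1, the vesicular transporter, went from 0.483 and 0.672 CPM to 21.7 and 19.7 CPM, 35.2-fold (log2 5.14 ± 0.34, adjusted p = 2.11e-11).

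Slc6a5, the glycine transporter gene, had 1 count in the 2 ES control libraries together and 1049 at day 8. The ratio scaled to library size was 893, with an exact 95% interval of 160 to 35300 that covers counting error only. Its day 8 level was 18.9 and 18.3 CPM (adjusted p = 2.28e-12). Dlx1 had 1 count in ES control and 127 at day 8, a ratio of 108 (interval 19.1 to 4303, adjusted p = 3.17e-07). Dlx5 had 0 and 53 counts, which against a floor of 3 counts over the group is at least 15.0-fold higher (adjusted p = 7.19e-06). Dlx2 rose 7.96-fold from 6 counts to 59 (log2 2.99 ± 0.70, adjusted p = 0.000741). Dlx6 went from 1 count to 26, a ratio of 22.1 (interval 3.64 to 907, adjusted p = 0.0162), and its call was lost in the DESeq2 Wald test (adjusted p = 0.270) and without ES control replicate 2 (0.111). The calls of the Dlx genes thus rested on 26 to 127 counts at day 8.

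Levels of different genes were compared per kilobase of exon (RPKM). The lengths join all annotated exons of a gene (7639 bases for Gad1, 5876 for Gad2, 2797 for Slc32a1), and the annotation used for counting is not given. At day 8 Gad1 had 1.11 and 1.12 counts per Gad2 count, so its place below Gad2 there comes from these lengths. The order of genes thus depends on the lengths used, which the SD does not cover. At day 8 Gad2 was at 8.13 ± 0.05, Slc32a1 at 7.40 ± 0.49 and Gad1 at 6.97 ± 0.02 RPKM (mean ± SD, n = 2), and the range of Slc32a1 reached close to that of Gad1. Slc6a5 followed at 2.58 RPKM, and the 4 Dlx genes lay between 0.193 and 0.416 RPKM. In ES control the order was Gad1 at 3.27 ± 0.49 RPKM, Slc32a1 at 0.207 and Gad2 at 0.0692 RPKM, with the other 5 members under 0.05 RPKM. At day 16 the order was Gad1 at 5.31 ± 0.12, Slc32a1 at 4.75 ± 0.10 and Gad2 at 4.11 ± 0.23 RPKM, and at day 17 Gad2 (4.80 ± 0.15), Gad1 (4.62 ± 0.08) and Slc32a1 (4.40 ± 1.14) lay within their spread of each other. With GW3965 the order at day 16 was Gad1 at 10.96 ± 0.34, Slc32a1 at 8.54 ± 0.10 and Gad2 at 7.29 ± 0.25 RPKM, each apart from the next. With GW3965 at day 17, Slc32a1 (4.26 ± 0.25) and Gad2 (4.20 ± 0.58) were not apart, and Gad1 (3.05 ± 0.23 RPKM) was the lowest of the 3.

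Between day 8 and day 16 the 3 GABA genes and Slc6a5 fell and no member rose: 4 of 8 were called lower, against 32.1% of all genes. The day 16 libraries held Gad1 at 41.2 and 39.9 CPM, a fall from day 8 of 1.31-fold (log2 -0.39 ± 0.08, adjusted p = 0.000383). Gad2 fell further, to 25.1 and 23.2 CPM, 1.98-fold lower (log2 -0.99 ± 0.12, adjusted p = 5.91e-07). Slc6a5 reached 10.2 and 7.38 CPM, 2.13-fold lower (log2 -1.09 ± 0.22, adjusted p = 0.000288).
Slc32a1 reached 13.1 and 13.5 CPM, 1.56-fold lower (log2 -0.64 ± 0.22, adjusted p = 0.0168), and this call was lost in the DESeq2 Wald test (adjusted p = 0.249) and without either day 16 library (0.0586 and 0.0541) or day 8 replicate 1 (0.0798). The 4 Dlx genes did not pass the test. Dlx1 was at 1.82 and 2.61 CPM at day 8 and at 1.19 and 1.18 CPM at day 16 (log2 -0.90, adjusted p = 0.0502). Dlx2 had a log2 difference of -1.17 (adjusted p = 0.0700), Dlx6 of -1.81 (0.126) and Dlx5 of 0.18 (0.729, 95% interval -0.69 to 1.05). Other settings called some of them lower at adjusted p under 0.05. Dlx1 passed with limma-voom (0.0421), the compared groups alone (0.0223), no filter (0.028), the stricter filter (0.0439) and without day 8 replicate 1 (0.04). Dlx2 passed with the compared groups alone (0.0388) and without day 8 replicate 1 (0.048), and Dlx6 with limma-voom (0.032) and without day 16 replicate 2 (0.0379).

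Pan-neuronal genes were mostly lower at day 16 too, and glutamatergic genes were not. The pan-neuronal sum was 4968 and 4923 CPM at day 8 and 2798 and 2745 CPM at day 16, and 9 of its 14 genes were called lower and 2 higher. Of 11 glutamatergic genes tested, 7 rose and none fell, and their sum was 42.2 and 36.7 CPM at day 8 and 85.6 and 96.4 CPM at day 16. Over the same interval the mesenchyme sum went from 2109 and 2519 CPM to 12070 and 13580 CPM, and the glial sum from 331 and 342 CPM to 1293 and 1321 CPM. Their part in the members' fall was not tested. Per 1000 pan-neuronal counts, Gad1, Gad2 and Slc32a1 together made up 24.7 and 24.5 at day 8 and 28.4 and 27.9 at day 16. The single genes differed in this. On the same scale Gad1 was at 10.7 and 10.8 at day 8 and at 14.7 and 14.5 at day 16, whereas Gad2 went from 9.66 and 9.67 to 8.97 and 8.45.

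From day 16 to day 17 only Slc6a5 was called, 1 of 8 members against 56.2% of all genes. Slc6a5 went from 10.2 and 7.38 CPM to 3.37 and 3.38 CPM, 2.58-fold lower (log2 -1.37 ± 0.26, adjusted p = 0.00015). With its fall since day 8, its CPM ratio to Slc32a1 went from 0.873 and 0.927 at day 8 through 0.777 and 0.547 at day 16 to 0.232 and 0.337 at day 17. Among the untreated differentiated libraries the ratio of the glycine to the shared vesicular transporter was therefore lowest at day 17. It lay below the day 8 libraries in each of the later untreated ones. Gad1 was at 34.9 and 35.7 CPM at day 17 (log2 -0.20 from day 16, adjusted p = 0.0545), Gad2 at 28.9 and 27.6 CPM (log2 0.23, adjusted p = 0.123) and Slc32a1 at 14.6 and 10.03 CPM (log2 -0.10, adjusted p = 0.733). Dlx5 was at 1.15 and 0.991 CPM at day 16 and at 1.92 and 1.75 CPM at day 17, its highest libraries in the series, but the difference did not pass the test (log2 0.79, adjusted p = 0.108).

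GW3965 raised 4 of the 8 genes at day 16 and lowered none. Of all genes, 13.0% were called higher. Both decarboxylase genes, the vesicular transporter and Dlx1 were the members that rose.

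With GW3965 the day 16 libraries held Gad1 at 82.0 and 85.6 CPM, against 41.2 and 39.9 CPM without it. The groups did not overlap, and the rise of 2.07-fold (log2 1.05 ± 0.08, adjusted p = 3.97e-08) took Gad1 to its highest level in the series. Gad2 was at 41.8 and 43.9 CPM against 25.1 and 23.2 CPM, 1.78-fold higher (log2 0.83 ± 0.12, adjusted p = 2.47e-05). Slc32a1 was at 24.1 and 23.7 CPM against 13.1 and 13.5 CPM, 1.80-fold higher (log2 0.84 ± 0.22, adjusted p = 0.0055). The day 8 libraries, for comparison, held Gad2 at 48.0 and 47.6 CPM and Slc32a1 at 21.7 and 19.7 CPM. The Slc32a1 call was lost in the DESeq2 Wald test (adjusted p = 0.131), while the fold there and in the other alternatives stayed between log2 0.83 and 0.87.

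Dlx1 was at 1.87 and 3.21 CPM with GW3965 and at 1.19 and 1.18 CPM without it, from 167 and 72 counts. The rise was 2.14-fold (log2 1.10 ± 0.38, adjusted p = 0.0338), but the treated libraries differed from each other by more than the lower of them differed from the untreated ones. The call was lost in the DESeq2 Wald test (adjusted p = 0.0504), without day 16 replicate 1 (0.118) or 2 (0.147), and without replicate 2 of the treated group, where log2 0.66 remained (0.336). Dlx2, Dlx5 and Dlx6 did not pass the test. Their groups overlapped, and their log2 differences were 0.35 (95% interval -0.85 to 1.54), -0.17 (-1.03 to 0.68) and 1.07 (-1.12 to 3.27). Slc6a5 was at 12.9 and 10.3 CPM against 10.2 and 7.38 CPM, a log2 difference of 0.41 ± 0.22 that did not pass the test (adjusted p = 0.173).

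Other neuronal genes rose with the GABA genes in these libraries. Of 14 pan-neuronal genes 12 rose and none fell, with a median log2 change of 0.62, beside 0.84 for the members and -0.03 for all genes tested. The pan-neuronal sum was 4407 and 4234 CPM with GW3965 and 2798 and 2745 CPM without it. All 12 mesenchyme genes fell, from a sum of 12070 and 13580 CPM to 7179 and 5779 CPM, and the glial sum went from 1293 and 1321 CPM to 907 and 721 CPM, with 5 of 12 genes lower and 1 higher. Of 10 pluripotency genes 8 fell and 1 rose, from a sum of 122 and 112 CPM to 68.3 and 75.2 CPM, and Nanog and Pou5f1, core factors of the pluripotent state, fell 7.35-fold and 4.37-fold. The part of these shifts in the members' rise was not tested. Per 1000 pan-neuronal counts, Gad1, Gad2 and Slc32a1 together made up 33.5 and 36.2 with GW3965 and 28.4 and 27.9 without it. On this scale Gad1 was at 18.6 and 20.2 against 14.7 and 14.5. Gad2 was at 9.48 and 10.4 against 8.97 and 8.45, and Slc32a1 at 5.46 and 5.59 against 4.68 and 4.91. The pan-neuronal genes that rose most, Mapt (log2 0.83) and Stmn2 (0.82), changed about as much as Gad2 (0.83) and Slc32a1 (0.84). Counts of Gad2 per count of the glutamatergic gene Slc17a6 overlapped, at 0.701 and 0.799 against 0.831 and 0.674. The 2 treated libraries were the pair least alike of any group in the series (chi-square per gene 41.2), yet they differed little in Gad1, Gad2 and Slc32a1.

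At day 17 the picture was different. GW3965 lowered Gad1 and raised Dlx1, and the other 6 members did not pass the test, so that 2 of 8 were called against 35.2% of all genes.

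Gad1 was at 22.0 and 24.5 CPM with GW3965 and at 34.9 and 35.7 CPM without it, 1.51-fold lower (log2 -0.60 ± 0.09, adjusted p = 3.98e-05). The treated values were near those of the ES control libraries, 27.6 and 22.3 CPM. Gad2 was at 22.2 and 27.1 CPM against 28.9 and 27.6 CPM (log2 -0.19, 95% interval -0.45 to 0.07, adjusted p = 0.243). Slc32a1 was at 12.4 and 11.4 CPM against 14.6 and 10.03 CPM (log2 -0.06, interval -0.55 to 0.43, adjusted p = 0.880), so a rise as large as that of day 16 lies outside both intervals. Slc6a5 was at 1.65 and 3.24 CPM against 3.37 and 3.38 CPM (log2 -0.46, adjusted p = 0.249).

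At day 17 the values of the 2 genomic Dlx pairs lay on opposite sides, with only Dlx1 called. Dlx1 was at 3.04 and 3.11 CPM with GW3965 and at 1.45 and 1.28 CPM without it, 2.23-fold higher (log2 1.16 ± 0.39, adjusted p = 0.0286). The call rested on 142 and 56 counts and was lost without any 1 of the 4 libraries (adjusted p = 0.0774 to 0.126). Dlx2 was at 1.29 and 1.13 CPM against 0.213 and 0.758 CPM (log2 1.40 ± 0.58, adjusted p = 0.0707). Dlx5 was at 0.982 and 0.799 CPM against 1.92 and 1.75 CPM (log2 -1.04 ± 0.42, adjusted p = 0.0645). Neither passed the test, though neither gene's groups overlapped. Dlx2 passed with limma-voom (adjusted p = 0.0312) and without untreated day 17 replicate 2 (0.027), and Dlx5 with limma-voom (0.03), the compared groups alone (0.0491) and the stricter filter (0.0443). The summed level of Dlx1 and Dlx2 was 4.33 and 4.25 CPM with GW3965 and 1.66 and 2.04 CPM without it, while that of Dlx5 and Dlx6 was 1.12 and 0.799 CPM against 1.92 and 2.16 CPM. Dlx6 itself had 3 counts with and 7 without GW3965, a ratio of 0.377 with an interval of 0.0628 to 1.65.

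**Figure D2:**
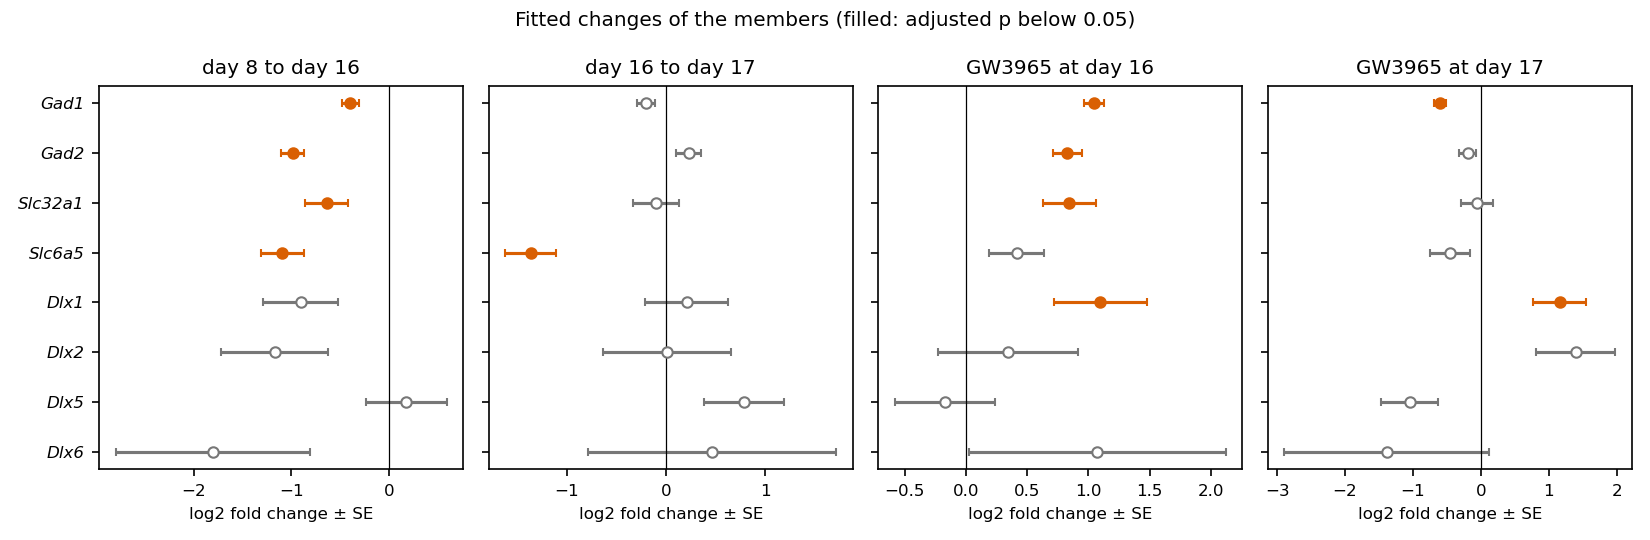
Each panel plots the fitted log2 fold change (horizontal axis, a separate scale per panel) of the 8 members with its SE as the bar, for 4 comparisons, and filled points have an edgeR adjusted p below 0.05. Gad1, Gad2 and Slc32a1 lie right of 0 for GW3965 at day 16 and at or left of 0 at day 17, while Dlx1 lies right of 0 in both.

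The difference between the 2 GW3965 responses was itself tested, and 3 of 8 members passed with a lower response at day 17, against 17.0% of all genes. The response of Gad1 was lower at day 17 by log2 -1.65 ± 0.12 (adjusted p = 7.83e-09), that of Gad2 by -1.02 ± 0.17 (adjusted p = 0.000104) and that of Slc32a1 by -0.90 ± 0.32 (adjusted p = 0.0328). For Slc32a1 the call was lost in the DESeq2 Wald test (adjusted p = 0.264) and without day 16 replicate 1 (0.0745) or 2 (0.0684), day 17 replicate 1 (0.211) or replicate 2 of the day 17 group with GW3965 (0.0781). Dlx1, called higher on both days, had a difference of 0.06 (95% interval -1.09 to 1.22), which is too wide to say that the responses were alike. Slc6a5 had a difference of -0.87 (adjusted p = 0.0734).

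Neuronal genes moved both ways at day 17. With GW3965, 8 of 14 pan-neuronal genes were higher and 3 lower, and their sum was 2400 and 2604 CPM against 2190 and 2216 CPM. Tubb3, a neuronal tubulin, rose 1.90-fold, Nefl 1.56-fold and Nefm 1.67-fold, though the groups of Nefm overlapped. Rbfox3, the neuronal nuclear antigen NeuN, fell 1.29-fold. Per 1000 pan-neuronal counts, Gad1, Gad2 and Slc32a1 together made up 23.6 and 24.2 with GW3965 and 35.7 and 33.1 without it. The single genes differed in this. Gad1 was at 9.17 and 9.41 against 15.9 and 16.1, and Gad2 at 9.27 and 10.4 against 13.2 and 12.4. The groups overlapped for Slc32a1, at 5.17 and 4.39 against 6.64 and 4.53. The mesenchyme sum was 10670 and 9754 CPM against 10070 and 10950 CPM and overlapped between the groups, and the glial sum was 2680 and 2255 CPM against 3080 and 3373 CPM. Their part was not tested.

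The ratio of the decarboxylase genes also moved within the libraries. Gad1 counts per Gad2 count were 1.11 and 1.12 at day 8. At day 16 the ratio was 1.64 and 1.72 in the untreated libraries, 1.96 and 1.95 in the GW3965 libraries. At day 17 it was 1.21 and 1.29 without GW3965 and 0.990 and 0.905 under it. The ratio was thus above its untreated value in both treated libraries of day 16 and below it in both of day 17. In ES control, where Gad2 was near its limit of detection, it was 44.9 and 113. Against the glutamatergic side, Gad2 counts per count of Slc17a6, the vesicular glutamate transporter VGLUT2, were 5.77 and 7.51 at day 8 and between 0.599 and 0.831 in the 8 later libraries. The ratio was thus lower in each of the later libraries than in both day 8 libraries.

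**Figure D3:**
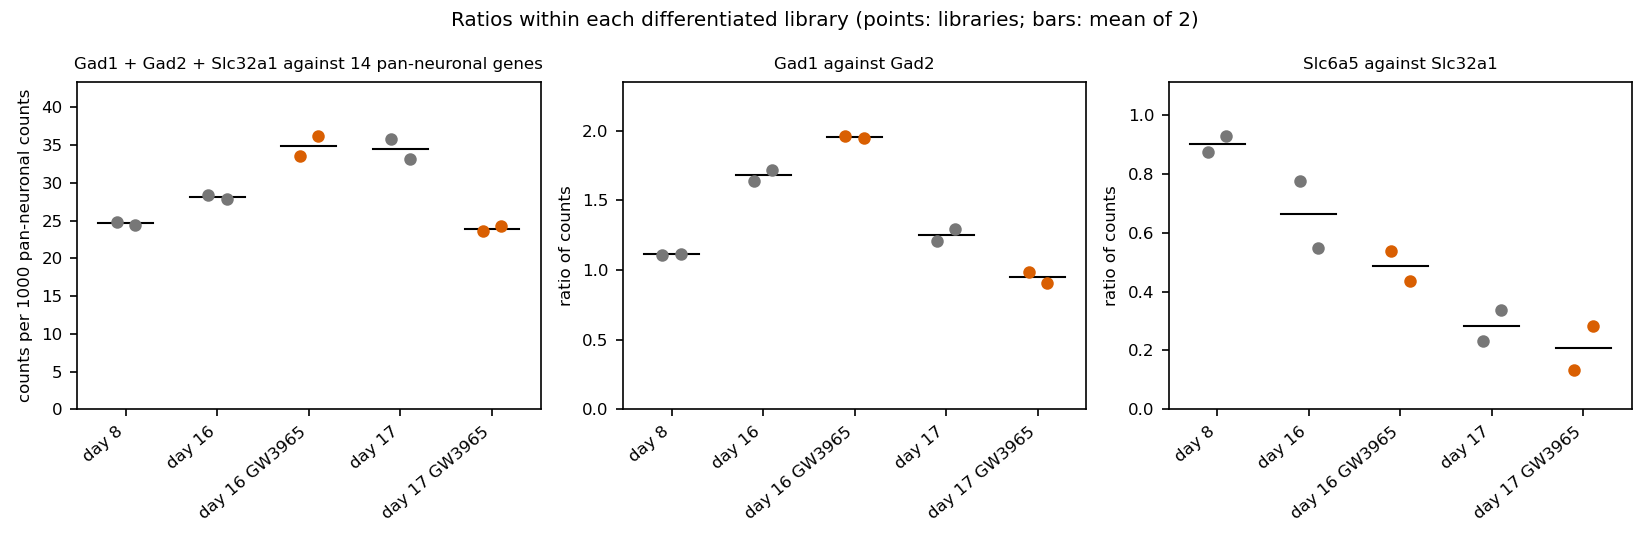
Points are the 10 differentiated libraries and bars the mean of 2. The left panel gives counts of Gad1, Gad2 and Slc32a1 per 1000 counts of 14 pan-neuronal genes, the middle panel Gad1 per Gad2 and the right panel Slc6a5 per Slc32a1. GW3965 libraries lie above the untreated ones at day 16 and below them at day 17 in the left and middle panels, and the right panel is highest at day 8.

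In undifferentiated ES cells the ligands gave few calls. GW3965 changed 0 of 8 members (0.320% of all genes called) by edgeR, with 1 at an unadjusted p below 0.05, Dlx2, which had 6 counts in control and 0 with GW3965. LG268 also changed 0 (0.851% of all genes), with 1 at an unadjusted p below 0.05, Gad1. The DESeq2 Wald test and limma-voom also gave 0 for each of these ligands. Gad1 stood at 23.4 and 23.8 CPM with GW3965, 19.9 and 19.4 with LG268 and 21.0 and 20.7 with both, and at 27.6 and 22.3 in control. For LG268 its log2 difference was -0.34 ± 0.09 (adjusted p = 0.107), which passed in a fit of the 2 groups alone (0.0434) and without ES control replicate 2 (0.0289). For both ligands together, 1 of 8 members was called (11.3% of all genes). This was Gad2, with 2 counts against 19 in control, a ratio of 0.137 (interval 0.0155 to 0.569, adjusted p = 0.0328). The call was lost with DESeq2 (adjusted p = 0.0548), with limma-voom (0.117) and without either treated library (0.171 and 0.103) or control replicate 1 (0.387). Outside Gad1, low counts limited what could be detected in ES cells. Over the 8 undifferentiated libraries Slc6a5 had 3 counts in all, Dlx1 4, Dlx2 11, Dlx5 1 and Dlx6 1.

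Antisense transcripts are annotated at both Dlx pairs and at Gad1. Exons of Dlx1 overlap those of Dlx1as over 335 bases (6.21% of the gene's exon bases), those of Dlx6 overlap Dlx6os2 over 104 bases (4.38%) and those of Slc32a1 overlap Gm14205 over 697 bases (24.9%), each on the opposite strand. No strand setting is given in the sources used here, so reads in these stretches cannot be told apart. Dlx1as had 0 counts in all 8 undifferentiated libraries and 0.967 and 1.503 CPM at day 8. With GW3965 it was at 1.91 and 1.99 CPM against 1.03 and 1.29 CPM at day 16 (log2 0.73, adjusted p = 0.248) and at 2.54 and 1.35 CPM against 0.470 and 1.46 CPM at day 17 (log2 1.07, adjusted p = 0.116). Its values lay on the same side as those of Dlx1 on both days without passing the test. Dlx6os1, the antisense transcript of the other pair, was at 1.84 and 2.11 CPM against 1.32 and 0.826 CPM at day 16 (log2 0.91, adjusted p = 0.130), and at day 17 its groups overlapped. The antisense transcript of Gad1 (Gad1os) was not called in any of these comparisons.

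**Figure D4:**
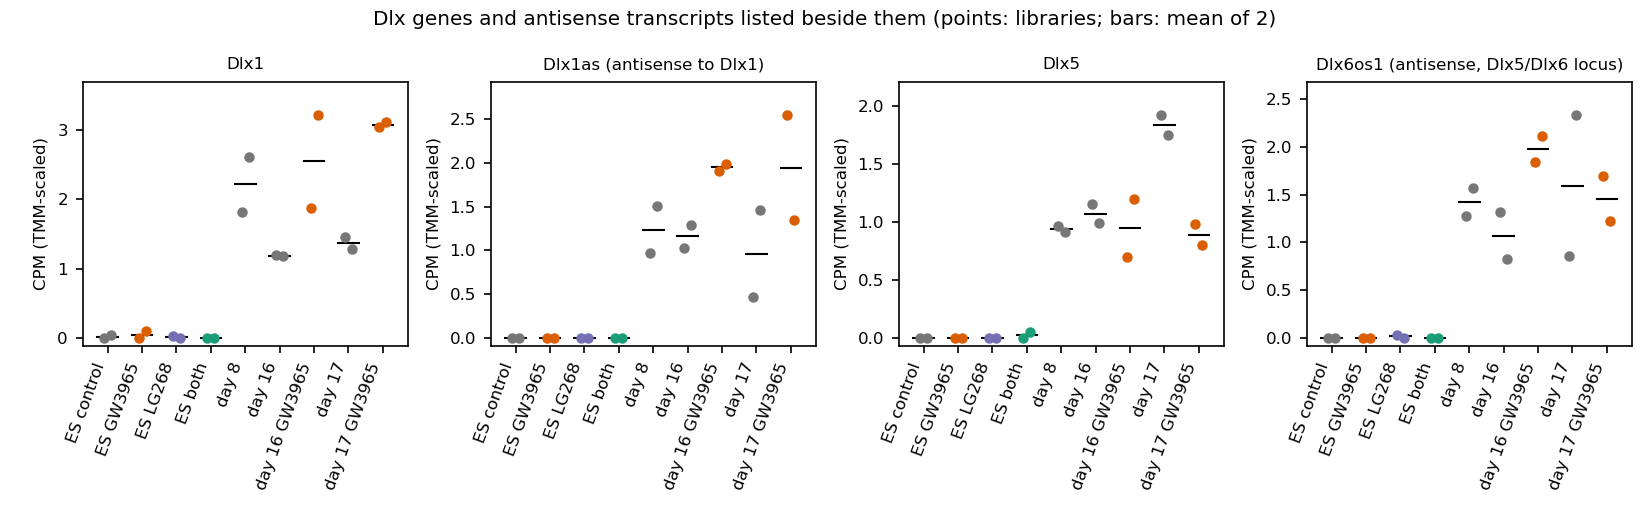
CPM of Dlx1, its antisense transcript Dlx1as, Dlx5 and Dlx6os1 (vertical axis, a separate scale per panel) over the 9 groups, with 1 point per library and a bar at the mean of 2. Dlx1 and Dlx1as have 0 or nearly 0 counts in the undifferentiated groups and lie between 0.4 and 3.3 CPM in the differentiated ones.

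The other genes of GABA handling followed the members only in part. Of 13 such genes, 7 rose and 3 fell from ES cells to day 8, 4 rose and 3 fell from day 8 to day 16, and 5 rose and 2 fell with GW3965 at day 16. Of all 17166 genes tested, 6807 rose and 6712 fell to day 8, and 5048 rose and 5518 fell from day 8 to day 16. With GW3965, 2234 rose and 3211 fell at day 16, and 2961 rose and 3083 fell at day 17. The counts of every gene list are to be read beside these. The GABA transporter gene Slc6a11 (GAT3), known from astrocytes, rose 18.4-fold from 4.29 to 79.3 CPM (group means) between days 8 and 16 while Gad2 fell. With GW3965 at day 16, Slc12a5, the chloride exporter KCC2 of mature neurons, rose 1.71-fold to 100.5 CPM. At day 17, 5 of the 13 fell and 2 rose with GW3965. Abat, which breaks GABA down, rose 1.30-fold.

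Of 7 glycine transmission genes beside Slc6a5, 4 rose and none fell with GW3965 at day 16, and 3 fell and none rose at day 17. Glra2, a glycine receptor subunit of developing neurons, rose 2.01-fold at day 16. Slc6a9 (GLYT1), a glycine transporter of glia and some neurons, fell 2.50-fold at day 17, from 88.8 to 35.7 CPM. Between day 8 and day 16, while Slc6a5 fell, the receptor gene Glra1 fell 3.66-fold and Slc6a9, Glrb and Gphn rose.

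Of 16 fate factors of inhibitory neurons of the midbrain, hindbrain and spinal cord that were tested, 15 rose from ES cells to day 8 and 13 fell by day 16, with a median log2 change of -2.05 beside -0.04 for all genes. Lhx1 fell 8.00-fold from 130 to 16.3 CPM, Lhx5 5.78-fold and Prdm13 11.4-fold. Pax2 and Tfap2b had 0 counts in ES control and 61.5 and 79.4 CPM at day 8, while Ptf1a, also at 0 counts in ES control, reached 0.608 CPM. Helt had at most 7 counts in any group and was not tested. With GW3965 at day 16, 6 rose and 3 fell, with a median log2 change of 0.13 beside -0.03 for all genes. Tal1 (2.38-fold) and Gata3 (1.99-fold), which act in midbrain and spinal GABAergic cells, were among the higher ones. Tfap2a (1.75-fold) was among the lower. At day 17 only Lhx5 of this list was called, 1.84-fold higher.

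Among 18 forebrain GABAergic factors beside the 4 Dlx members, 13 rose and 2 fell from ES cells to day 8. GW3965 raised 1 and lowered 1 at day 16, Satb1 (1.20-fold higher) and Gsx1 (7.83-fold lower, from 1.60 to 0.197 CPM). At day 17, 3 of the 18 rose and 2 fell with GW3965. Dlx3 was then 2.25-fold and Isl1 1.835-fold higher, and Gsx1, a factor of ventral progenitors, 2.34-fold lower. Between days 8 and 16, 4 of the 18 rose and 7 fell, with a median log2 change of -0.06 beside -0.04 for all genes. Over that interval Dlx4 rose 5.47-fold and Gsx2 fell 13.5-fold. Of 12 interneuron peptide and calcium-binding genes tested, 3 rose and 2 fell with GW3965 at day 16. Npy rose 2.00-fold and Reln 1.53-fold there, while Penk fell 1.57-fold, from 170.6 to 108.6 CPM. At day 17, 1 of the 12 rose and 3 fell with GW3965, close to the 35.2% of all genes called in either direction. Npy was then 1.94-fold, Penk 1.32-fold and Reln 1.28-fold lower. Pvalb and Crh, markers of mature interneurons, were too low to test, with at most 5 and 27 counts in any group. Of 11 glutamatergic genes tested, 2 rose and none fell with GW3965 at day 16, Slc17a6 (1.77-fold) and Camk2a (1.60-fold), and Emx1 was too low to test.

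**Figure D5:**
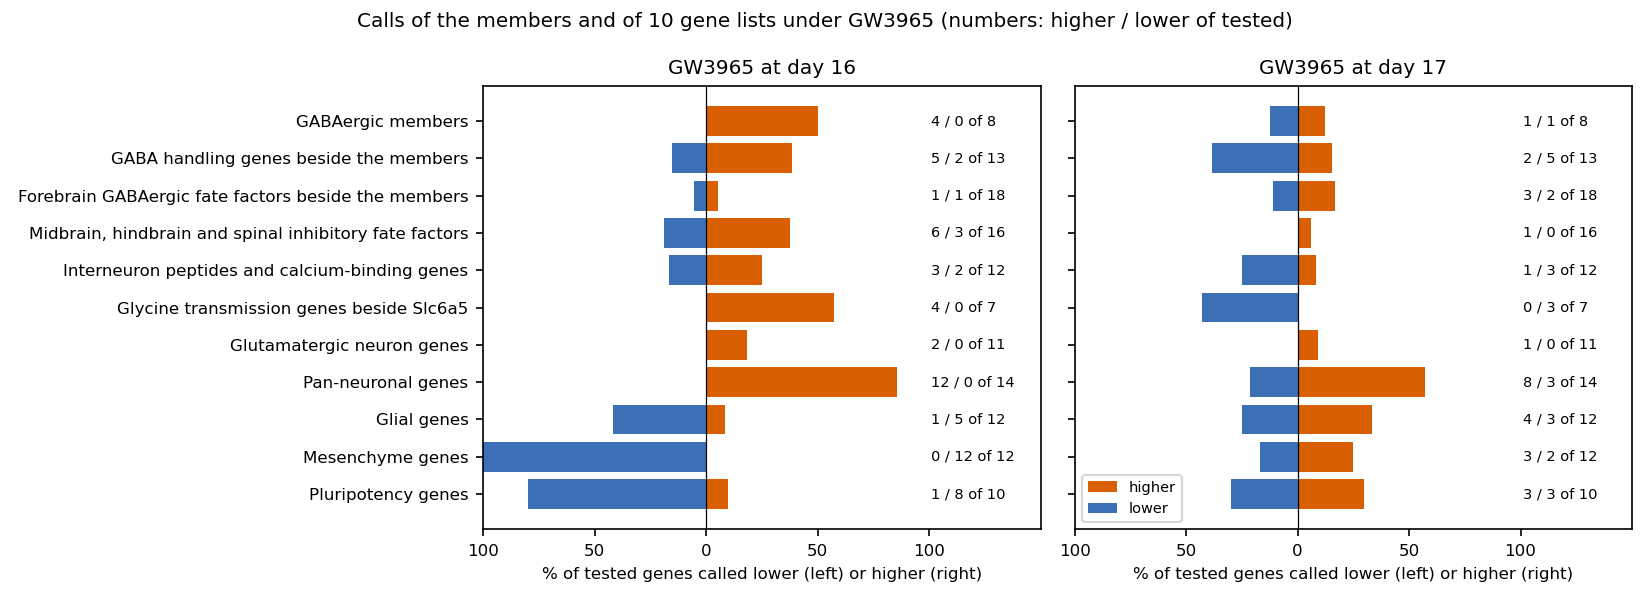
Bars give the share of tested genes called lower (left of 0) and higher (right of 0) with GW3965 at day 16 and day 17 for the 8 members and 10 other lists, with the counts at the right. At day 16 the members (4 higher, 0 lower of 8) and the pan-neuronal genes (12 and 0 of 14) lie on the higher side and all 12 mesenchyme genes on the lower, and at day 17 the members split 1 and 1.

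Across the 10 differentiated libraries, Gad2 and Slc32a1 had a Pearson r of 0.87 in log2 CPM, Gad1 and Slc32a1 also 0.87, and Gad1 and Gad2 0.79. Dlx1 and Dlx2 had an r of 0.69, Dlx1 and Dlx5 of -0.44 and Dlx1 and Gad1 of 0.00. These are descriptions over libraries that share their groups. Of 12584 genes ranked, those whose pattern was most like that of Gad1 were Kif5a (r = 0.993), Scg5 (0.984), Atcay (0.982), Myt1l (0.980) and Sez6l2 (0.978). Kif5a, a neuronal kinesin, was at 145 CPM at day 16 and 251 with GW3965, and at 118 CPM at day 17 and 89.9 with GW3965 (group means). For Dlx2, whose low counts limit any likeness, they were Ctns (r = 0.921), Gcc2 (0.892), Adprm (0.863), Ttc30a1 (0.860) and Zfp790 (0.858).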

How the data were processed

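RNA of 18 libraries (9 groups of 2) was sequenced, and the deposited files give raw read counts per gene symbol, as whole numbers. Per the submitters' processing notes, the authors used TopHat2 2.0.7, Cufflinks 2.0.2, HTSeq 0.6.0 and Cuffdiff 2.0.2 with build mm10. The order of the tools, the annotation and the strand setting are not given in the sources used here. Summary lines that name no gene (reads with no feature, 42.1 to 65.9% of the listed reads) were left out of library sizes.

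Counts were fitted in 1 model of 9 groups (R 4.3.3, edgeR 4.0.16, quasi-likelihood, TMM, filterByExpr with a minimum count of 10), with Benjamini-Hochberg adjustment over 17166 genes in each comparison and a two-sided call at an adjusted p below 0.05. Log CPM used a prior count of 2. RPKM used exon lengths of GENCODE M21, promoters came from RefSeq (GRCm38.p6), and Dlx5 and Dlx6 were not among the promoters matched. The code was tested on simulated data. Intervals of fold changes come from the fit, and those of count ratios are exact and cover counting error only.

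Members were always named. Of other lists at most the 4 called genes with the largest fold at 1 CPM or more in a group were candidates for naming. Genes too low to test were named as well, and so was Ptf1a, although below 1 CPM in every group. The members and lists were chosen with earlier results of these data known. Likeness was ranked by Pearson r among genes at 5 CPM or more. Libraries with the same replicate number did not deviate together from their groups (correlations of -0.096 to 0.0691 in 36 pairs), and no pairing was used. Alternatives were DESeq2 1.42.0 size factors and Wald test, limma-voom (limma 3.58.1), a filter at 1 CPM in 4 libraries, all genes unfiltered, the compared groups alone, a fit without the day 17 libraries, a replicate block and leaving out each library.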

Additional observations from a re-analysis of the deposited data

Results flagged for a closer look

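The effect of GW3965 on 3 of the 8 genes differed between day 16 and day 17 by a test of the difference itself (edgeR, adjusted over all genes). Gad1 was raised at day 16 and lowered at day 17, and its response was lower at day 17 by log2 -1.65 (adjusted p = 7.83e-09). Across the alternatives this difference ran from -1.74 to -1.58 and always passed. For Gad2, raised at day 16 and not called at day 17, the difference was -1.02 (adjusted p = 0.000104), with a range of -1.18 to -0.89 and a call in every alternative. For Slc32a1 it was -0.90 (adjusted p = 0.0328), with a range of -1.13 to -0.60 and adjusted p values from 0.000621 to 0.264. The day 16 and day 17 files also differ in their class of reads aligned more than once and, by the names of the files, in the length of exposure, and these cannot be told apart from the day. Of the 50-base stretches of Slc32a1 transcripts 23.6% also occur in another gene on either strand, against 1.49% for Gad1 and 1.17% for Gad2. Exons of Slc32a1 overlap those of the antisense gene Gm14205 over 24.9% of their bases, at the same place in the genome. Stretches shared in this way are not a measure of reads aligned more than once.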

How the results depend on the processing

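With a replicate block the members called numbered 8, 4, 1, 4 and 2 for ES control to day 8, day 8 to 16, day 16 to 17, and GW3965 at days 16 and 17, the same counts as without it, and it changed no call of a member. The count of members called moved by over 1.5 times in these settings. For both ligands in ES cells (1) it was 0 with the DESeq2 Wald test, limma-voom or the compared groups alone, for day 16 to 17 (1) it was 2 with the compared groups and 4 with limma-voom, for GW3965 at day 16 (4) it was 2 with the DESeq2 Wald test, for GW3965 at day 17 (2) it was 4 with limma-voom, and for LG268 (0) it was 1 with the compared groups. It moved by less in others. ES control to day 8 (8) gave 7 with the DESeq2 Wald test. The stricter filter gave 6 there, as it left Dlx2 and Dlx6 untested, and all members still tested were called. Day 8 to 16 (4) gave 3 to 6, and GW3965 at day 16 gave 5 with limma-voom. GW3965 at day 17 gave 3 with the compared groups or the stricter filter. The response difference (3) gave 2 with the DESeq2 Wald test and 4 with no filter. Leaving out 1 library gave 7 to 8 members for ES control to day 8, 3 to 5 for day 8 to 16, 1 to 1 for day 16 to 17, 3 to 4 and 1 to 2 for GW3965 at days 16 and 17, 2 to 3 for the response difference, 0 to 0, 0 to 1 and 0 to 2 for GW3965, LG268 and both in ES cells. A group then left with 1 library was assumed to vary like the others.

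Of single members, 25 values changed sign (log2), none of them called. With limma-voom, Dlx2 from day 16 to 17 was -0.17, and Slc32a1 in ES cells was -0.20 with both ligands and -0.017 with LG268. With the replicate block Dlx2 from day 16 to 17 was -0.0086. Leaving out 1 library gave the other sign changes, with these ranges. From day 16 to 17 they were -1.08 to 0.74 for Dlx2, -4.79 to 5.20 for Dlx6 and -0.40 to 0.13 for Slc32a1. With GW3965 at day 16 they were -0.20 to 0.75 for Dlx2 and -0.61 to 0.17 for Dlx5, and at day 17 -5.24 to 3.88 for Dlx6 and -0.29 to 0.25 for Slc32a1. For the response difference they were -0.28 to 0.50 for Dlx1 and -7.19 to 2.80 for Dlx6. In ES cells they were -0.23 to 0.081 for Gad1, -0.56 to 1.05 for Gad2 and -0.047 to 0.70 for Slc32a1 with GW3965. With LG268 they were -1.29 to 0.32 for Gad2, -1.27 to 0.96 for Slc32a1 and -1.04 to 0.066 for Dlx2, and with both ligands -1.36 to 0.77 for Slc32a1. The cause was not tested.

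Over all genes, calls for both ligands in ES cells went from 1940 (830 higher, 1110 lower) to 427 (270 and 157) with the compared groups, and leaving out 1 library gave 718 to 2844. For GW3965 in ES cells 55 became 369 with the compared groups and 164 with no filter (28 to 44 leaving out 1 library), and for LG268 146 became 231 with the DESeq2 Wald test, 843 with the compared groups and 336 with no filter (42 to 70). For GW3965 at day 16, 5445 became 3589 to 4879, the lowest without treated replicate 2. Depth limits the 4 Dlx genes, at 3 to 167 counts in the differentiated groups, and every member but Gad1 in ES cells.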
